A study of Mus musculus with 30 samples.

Results

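Neutrophil secondary granule genes were followed in stromal cells of mouse bone, lung and brain, with and without tumours grown from human circulating tumour cells. The 7 genes were Ltf, Camp, Ngp, Lcn2, Mmp8, Ly6g and Retnlg. They were taken by symbol from the 43346 genes of the deposited count table, and all 7 were found. Counts came from 30 libraries of RNA from 50000 sorted cells each. The sort took cells without GFP, which the tumour cells carried together with luciferase. Exposed libraries came from female NSG mice, 6 to 8 weeks old when 100000 cells of a human breast circulating tumour cell line were put into the left heart ventricle, and carrying slow-release estrogen under the skin. NSG mice lack T, B and NK cells and keep neutrophils and monocytes. The lines were Brx07 (2 libraries), Brx50 (4) and Brx68 (7) in bone, with 3 bone controls. In lung they were Brx07 (2), Brx42 (1), Brx50 (3) and Brx68 (1), with 2 controls, and in brain Brx50 (3), with 2 controls. Controls came from tumour-free mice. The sources used here do not give the age of the control mice, whether they carried estrogen, or the time from inoculation to collection. Both Brx07 bone libraries carry the same label code, library 1 being named leg and library 2 skull.

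Neutrophils are built in the bone marrow, and their granules are filled in a fixed order. Precursors first transcribe the genes of the primary granules, such as Mpo and Elane, then those of the secondary (specific) granules, under the factor C/EBP epsilon, and most of this transcription has ended when the cell enters blood. A circulating neutrophil therefore carries much granule protein and little of its messenger RNA. Of the genes followed here, Ltf encodes the iron-binding protein lactoferrin, Camp the cathelicidin peptide CRAMP, Ngp the neutrophilic granule protein of the cystatin fold, Lcn2 the siderophore-binding lipocalin NGAL, and Mmp8 the neutrophil collagenase. Ly6g encodes the surface protein by which mouse neutrophils are sorted, and Retnlg a secreted resistin-like protein, so these 2 are neutrophil genes without being contents of the secondary granule. Several are not confined to neutrophils: Ltf and Lcn2 are also made by glandular and airway epithelium, and Lcn2 by reactive astrocytes and macrophages.

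In the GRCm38 assembly Camp (109847379 to 109849617, minus strand), Ngp (110419747 to 110423012, plus) and Ltf (111019271 to 111042767, plus) lie within 1.2 megabases of chromosome 9. Mmp8 lies elsewhere on chromosome 9 (7558456 to 7568485, plus). Lcn2 lies on chromosome 2 (32384633 to 32388252, minus), Ly6g on chromosome 15 (75155240 to 75159126, plus) and Retnlg on chromosome 16 (48872621 to 48874496, plus). No other gene of the annotation overlaps the span of a member. RefSeq promoters (build GRCm38.p6, 250 bases before to 50 after the start) were matched for all 7 and searched on both strands for TTGCNNAA, the core that C/EBP factors bind, and for GAGGAA, a core of the ETS factor PU.1. TTGCNNAA was found in promoters of 6 of the 7 genes, Camp being without it, against 10.8% of 32851 RefSeq promoters. It began 138 and 11 bases before the start in Ngp, 75 in Ltf, 19 in Mmp8, 216 in Lcn2, 246 in Retnlg and 232 in 1 of the 2 Ly6g promoters. GAGGAA was found in Ltf, Mmp8, Lcn2 and Ly6g, against 28.3% of promoters. A match is a string of letters and not a binding site, and the windows of Camp and Ngp begin late, since GENCODE places their starts 161 and 61 bases upstream of RefSeq. The Ngp match 11 bases before the RefSeq start therefore lies downstream of the GENCODE start, outside the stretch printed below. For Lcn2, GENCODE also places 1 start upstream of the whole window, so its match lies downstream of that start. To show where the match lies, the stretches of Ngp, Ltf and Mmp8, and of Camp as the member without a match, are printed from 250 bases before the RefSeq start to the first start in either annotation, 5′ to 3′, with TTGCNNAA or its reverse complement in capitals. The stretches are chr9:110419558-110419746 (plus strand), chr9:111019042-111019270 (plus strand), chr9:7558179-7558428 (plus strand) and chr9:109849618-109849706 (minus strand).
Ngp: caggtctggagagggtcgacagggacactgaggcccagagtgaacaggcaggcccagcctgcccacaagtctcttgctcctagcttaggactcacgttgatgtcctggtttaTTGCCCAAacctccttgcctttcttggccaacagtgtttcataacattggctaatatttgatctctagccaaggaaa
Ltf: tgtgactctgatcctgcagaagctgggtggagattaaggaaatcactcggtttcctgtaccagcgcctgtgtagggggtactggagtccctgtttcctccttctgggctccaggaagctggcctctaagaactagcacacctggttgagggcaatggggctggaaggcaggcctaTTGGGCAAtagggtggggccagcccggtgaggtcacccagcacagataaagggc
Mmp8: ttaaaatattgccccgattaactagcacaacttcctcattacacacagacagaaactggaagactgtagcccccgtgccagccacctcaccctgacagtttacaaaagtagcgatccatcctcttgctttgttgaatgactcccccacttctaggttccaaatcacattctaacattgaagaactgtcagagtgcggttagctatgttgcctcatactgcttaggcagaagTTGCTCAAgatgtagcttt
Camp: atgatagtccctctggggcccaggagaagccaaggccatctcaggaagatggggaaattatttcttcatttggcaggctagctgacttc

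Total counts ran from 4289012 to 15646947 per library, so that a count of 0 allows up to 3 counts, or 0.264 to 0.699 CPM (counts per 1000000 counts of the library) where a member was at 0. Exposed libraries of a tissue were far from alike. The lung markers Sftpc, Ager and Scgb1a1 summed to 1799 and 2269 CPM in lung controls and to at most 5.73 CPM outside lung, but to 120.1 CPM in Brx07 lung library 1 and 375 in Brx50 lung library 3. The brain list (Snap25, P2ry12, Gfap, Mbp) summed to at least 9481 CPM in each brain library and to at most 380.4 elsewhere. The bone lineage list summed to 2299 to 30259.7 CPM in bone and to 9518 CPM in Brx07 lung library 1, so it did not separate the tissues. The labels do not say whether each library is a mouse of its own, so the p-values cover the spread among libraries, which may in part be technical. In sorted bulk cells, fewer neutrophils and less granule RNA per neutrophil cannot be told apart.

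Tumour-free tissues differed steeply, with all 7 genes highest in bone and lowest in brain. The members took 1.90% to 2.57% of all counts in bone controls, 0.0188% and 0.0209% in lung controls, and 0.000600% and 0.000765% in brain controls. Per kilobase of exon, Ngp was the most abundant member in bone at 7463 CPM/kb (SD 954, n = 3), followed by Camp at 2915 (SD 239), Ltf at 1956 (SD 342), Retnlg at 1619.9 (SD 374), Lcn2 at 1051 (SD 181), Mmp8 at 193 (SD 46.8) and Ly6g at 130.4 (SD 36.0). Ltf and Retnlg, Retnlg and Lcn2, and Mmp8 and Ly6g are neighbours in that order whose ranges over the 3 libraries overlap. In lung controls the order was another: Retnlg led at 67.7 CPM/kb (SD 10.3, n = 2), then Lcn2 at 37.2 (SD 0.0218), Ngp at 14.8 (SD 4.63) and Mmp8 at 10.1 (SD 1.46), with Ltf at 4.15, Ly6g at 2.72 and Camp at 2.10. Camp, the second in bone, was the last in lung.

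All 7 members were called higher in bone than in lung controls, where 22.5% of 18859 genes were. The difference was largest for Camp, Ngp and Ltf. Camp stood at 2057, 2409 and 2163 CPM in bone and 1.70 and 1.49 in lung, which is 10.40 on the log2 scale (SE 0.25, adjusted p = 8.06e-11 by edgeR's quasi-likelihood test). Ngp stood at 7930, 10261 and 9170 CPM against 22.1 and 14.1 (8.94, SE 0.35), and Ltf at 5536, 7889 and 6821 against 14.3 and 14.3 (8.85, SE 0.28). Lcn2, Mmp8, Ly6g and Retnlg differed less, by 4.80 (SE 0.27), 4.22 (SE 0.24), 5.55 (SE 0.32) and 4.55 (SE 0.24), with adjusted p of at most 1.69e-07. Against brain controls all 7 were again higher in bone, as were 37% of genes, by 9.37 for Retnlg to 12.82 for Ltf, and all 7 were higher in lung than in brain, as were 34.6% of genes. The lung to brain difference ran from 1.80 for Camp (SE 0.46, adjusted p = 0.00352) to 6.97 for Lcn2 (SE 0.40, adjusted p = 1.73e-08). Brain controls held 3 counts of Mmp8 and 1 of Ly6g in all, so these folds rest on almost no reads: Ly6g counts per total were 1657 times as high in bone controls (95% counting interval 297 to 65463) and 35.2 times as high in lung controls (6.07 to 1415). A counting interval covers the sampling of reads and not the spread among libraries. When the spread was estimated from all 30 libraries, none of the 7 passed between bone and lung or lung and brain controls, with adjusted p from 0.101 to 0.737, and Ly6g no longer passed between bone and brain controls (adjusted p = 0.0583). Other neutrophil genes were likewise mostly higher in bone than lung controls: all 6 primary granule genes, led by Mpo (10.92, SE 0.29) and Ctsg (10.60, SE 0.30), 8 of 11 other specific and gelatinase granule genes, led by Olfm4 (5.57, SE 0.31) and Mmp9 (3.19, SE 0.23), and 7 of 10 mature neutrophil genes, led by S100a8 (4.80, SE 0.24) and S100a9 (4.09, SE 0.22), with Clec4d lower. Of 6 regulators, Cebpe (5.36, SE 0.24) and Gfi1 (5.16, SE 0.30) were higher, and Cebpa and Cebpb lower.

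**Figure D1:**
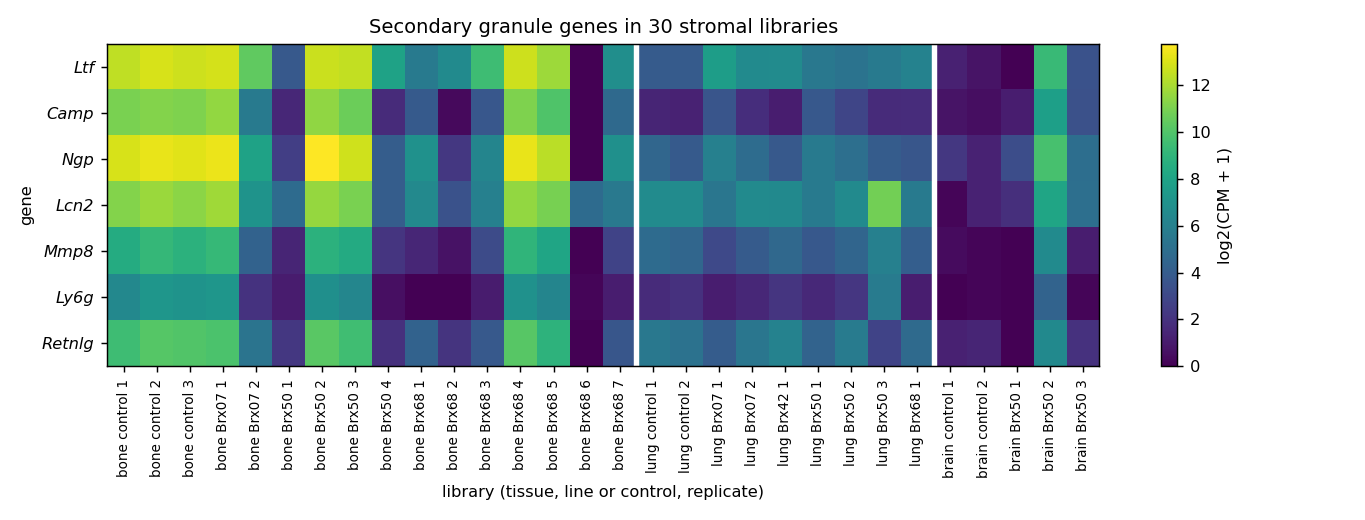
Level of each of the 7 genes (rows) in each of the 30 libraries (columns, by tissue, then control or tumour line and replicate), as log2(CPM + 1) on a colour scale from 0 (dark) upwards. The 3 bone controls and some exposed bone libraries are bright in all rows, Brx68 bone library 6 is at 0 in 5 rows, and Brx50 brain library 2 is the brightest brain library.

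In bone the comparison asked how stroma beside tumours differed from tumour-free stroma. The exposed libraries spanned the whole range from the control level down to nothing. Brx07 library 1, Brx50 libraries 2 and 3 and Brx68 libraries 4 and 5 held each member at 45.2% or more of its control mean, and the other 8 held each member at 20.4% or less. Brx50 bone library 2 carried the highest Ngp, at 153% of the control mean, and Brx07 bone library 1 the highest Camp and Lcn2, at 132% and 131%. In the share of all counts, the members ran from 0.00271% to 2.82% over the 13 exposed libraries, with a median of 0.0894%.

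Ltf, at 5536, 7889 and 6821 CPM in controls, ran from 0 to 7501 CPM over the 13 exposed libraries, with a median of 720 CPM. Of these, 9 were below every control, 4 within the control range and none above it. Camp stood at 2057, 2409 and 2163 CPM in controls and from 0 to 2911 (median 24.8) in exposed bone, and Ngp at 7930, 10261 and 9170 against 0 to 13929 (median 125). For both, 10 libraries were below every control, 1 within and 2 above. Lcn2 stood at 2334, 3271 and 2665 CPM against 10.2 to 3605 (median 87.5), and was, of the 7, the member with counts in each of the 16 bone libraries. Mmp8 stood at 355, 582 and 465.6 CPM against 0 to 601 (median 7.92), with 10 libraries below every control. The neutrophil surface gene Ly6g stood at 85.1, 151 and 133 CPM against 0 to 147 (median 1.18), and Retnlg at 714, 1143 and 1025 against 0 to 1229 (median 19.1). The control and exposed ranges overlapped for every member, with most exposed libraries below.

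None of the 7 was called in bone, nor was any of 18278 genes (0%) by edgeR's quasi-likelihood test, with 458 genes at an unadjusted p under 0.05. The estimated log2 fold changes were close to each other, from -1.35 (Ngp, SE 1.81, 95% interval -4.90 to 2.21) to -1.55 (Ly6g), each with an adjusted p = 0.97, and -1.45 (SE 1.48) for Ltf. The median over the 7 was -1.44, beside 0.08 over all genes tested. Mean CPM were 2506 ± 3029 (SD, n = 13) against 6749 ± 1178 (n = 3) for Ltf and 3626 ± 5072 against 9120.1 ± 1166 for Ngp, and the 95% interval of each log2 fold change spanned 0. The call depended on the method: limma-voom with quality weights, which gives less weight to variable libraries, called all 7 lower, among 12% of all genes called lower, with log2 fold changes from -3.96 (Lcn2, adjusted p = 0.0105) to -5.68 (Camp, adjusted p = 0.0135), while DESeq2 called none of the 7 and 17 genes in all. With the Brx07 leg and skull libraries summed to 1 sample, none was called and the Ltf estimate was -1.53.

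Neutrophil genes of other stages also spanned from the control level to near 0. Of 6 primary granule genes, 0 were called and all 6 estimates were negative (median -1.53). Elane, the neutrophil elastase, and Mpo, the myeloperoxidase, stood at 784 to 1174 and 545 to 745 CPM in controls, and at 0 to 1563 and 0 to 1051 CPM in exposed bone. The list sum ran from 2179.5 to 3160 CPM in controls and from 0.616 to 4344 in exposed libraries, with the highest value in Brx68 library 4, where the members were near the control mean. Among 11 other specific and gelatinase granule genes, 0 were called and 11 estimates were negative (median -1.38), as in 10 genes of mature neutrophils (median -1.25), where S100a9 and S100a8, the calgranulins, lead in abundance. S100a9 ran from 2.69 CPM in Brx68 library 6 to 17889.5 CPM in Brx50 library 2. Of 6 regulators, Cebpe (-1.53), Gfi1 (-1.78) and Spi1 (-1.47), which encodes PU.1, had estimates near those of the members, and Cebpa (0.41) and Cebpd (0.20), which other cells also express, did not. Cebpb stood at 406 ± 20.9 CPM (n = 3) in controls and 239 ± 158 (n = 13) in exposed bone.

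In lists of other cell types 0 genes were called by edgeR's quasi-likelihood test, and estimates and library sums did not always go the same way. All 5 erythroid genes (median 0.66), 6 epithelial genes (1.82) and 6 tested gland genes (4.04) had positive estimates, as did 5 of 8 monocyte and macrophage genes (0.61) and 5 of 6 reactive astrocyte genes (1.02), while all 5 eosinophil, basophil and mast cell genes were negative (-0.67). Summed erythroid genes ran from 84.98 to 150.2 CPM in controls and from 2.83 to 1111 in exposed bone, with medians of 88.7 and 21.1 CPM: 9 of 13 exposed libraries were below every control, as were 10 of 13 for the members' sum, and Brx68 library 5 and Brx07 library 1 (673 CPM) were the highest. Epithelial genes had a median sum of 637 CPM in controls and 409 in exposed bone, with 7 libraries below and 4 above every control. Gland sums and monocyte and macrophage sums were each above every control in 9 of 13 libraries. The part of these cells in the members' levels was not tested. Among genes that make, recall or steer neutrophils, the estimates were mixed: 4 of 9 positive, with Csf3 (G-CSF) at 1.65 (SE 1.12) and Cxcl1 at 2.07 (SE 0.96), against Csf3r, its receptor gene, at -1.62 (SE 1.16) and Cxcr4 at -1.45 (SE 0.77). Il1b stood at 701 ± 176 CPM in controls and 459 ± 603 in exposed bone, and Cxcl2 at 267 ± 98.0 and 251 ± 288. Among 8 receptors and inhibitors of the granule products, 6 estimates were positive, with Lrp1, a lactoferrin receptor, at 1160.2 ± 119 CPM (n = 3) and 2393 ± 1831 (n = 13), and Timp2, an inhibitor of matrix metalloproteinases, at 516 ± 46.1 and 614 ± 353.

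**Figure D2:**
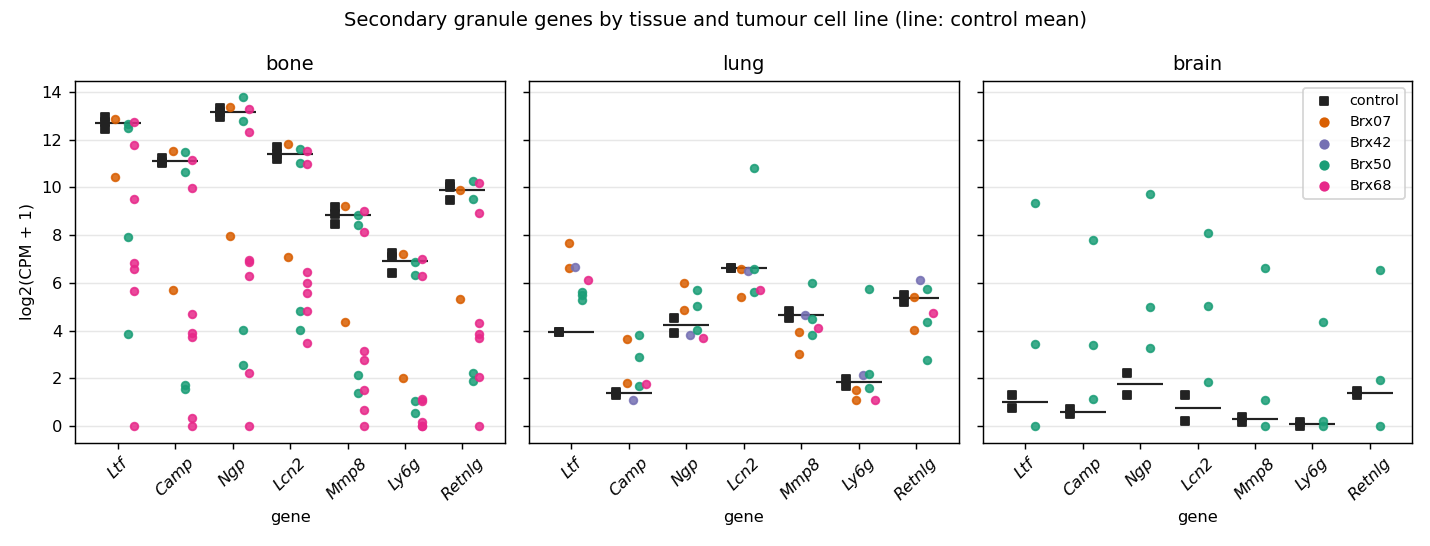
Level of each gene as log2(CPM + 1) in bone, lung and brain, with 1 point per library. Squares are controls, circles exposed libraries coloured by tumour line, and the horizontal line is the mean of the controls on this scale; in bone the exposed points span from about the control line to 0, or to 10.2 CPM for Lcn2, in lung all Ltf points lie above it, and in brain Brx50 library 2 stands far above it.

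The members stood in nearly the same proportions in the 3 bone controls and in others in several exposed libraries. Per Ngp count, bone controls held 0.698, 0.769 and 0.744 counts of Ltf, 0.259, 0.235 and 0.236 of Camp, and 0.294, 0.319 and 0.291 of Lcn2. The 5 exposed libraries with members near the control level held 0.467 to 0.822 counts of Ltf per Ngp count. Of the other 7 with Ngp counts, Brx68 library 1 held 0.394, below every control, and Brx68 library 7 held 0.956. The remaining libraries held more: 25.5 in Brx68 library 2, 15.7 in Brx50 library 4, 9.42 in Brx68 library 3, 5.57 in Brx07 library 2 and 2.72 in Brx50 library 1. In Brx68 library 3 this was 11263 counts of Ltf beside 1196 of Ngp, and in Brx50 library 4 it was 2125 beside 135, so that Ltf stood at 720 and 243 CPM where Ngp stood at 76.4 and 15.4. Camp did not follow: it held 0.0714 to 0.389 counts per Ngp count over the 12 exposed libraries with Ngp counts. The ratios in Brx68 library 2 and Brx50 library 1 rest on 42 and 36 Ngp counts. In Brx50 library 1 Ngp was the lowest member relative to its control mean, at 0.0540%, with Ltf at 0.199% and Lcn2 at 0.993%. By counts per Ngp count, Ltf was the member that departed furthest from the rest, and Lcn2 the next, with up to 5.56 in Brx50 library 1.

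Genes of mucous and serous glands, which also make lactoferrin, were high in most of those libraries. The 8 gland genes summed to 40.7, 1148 and 2089 CPM in the bone controls. They summed to 12163 CPM in Brx68 library 2, 23506 in Brx50 library 4, 12957 in Brx68 library 3 and 11852 in Brx07 library 2, but to 903 in Brx50 library 1. Brx50 library 3 had 14366 CPM of gland genes with 0.822 counts of Ltf per Ngp count, and Ngp at 6958 CPM. Brx68 libraries 1 and 7 had gland sums of 4504 and 4730 CPM, above every control. They held 0.394 and 0.956 counts of Ltf per Ngp count, with Ngp at 125 and 118 CPM. Muc5b, a gel-forming mucin, stood at 20506 CPM in Brx50 library 4 and 11848 in Brx68 library 2, and Bpifb1, a secreted airway and gland protein, at 5465 CPM in Brx50 library 3 and 3998 in Brx68 library 3. At the other end, 5 of the 8 gland genes were at 0 in Brx07 library 1, whose sum was 2.40 CPM. The part of gland cells in the Ltf level was not tested, nor was whether these libraries differ in other cells.

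**Figure D3:**
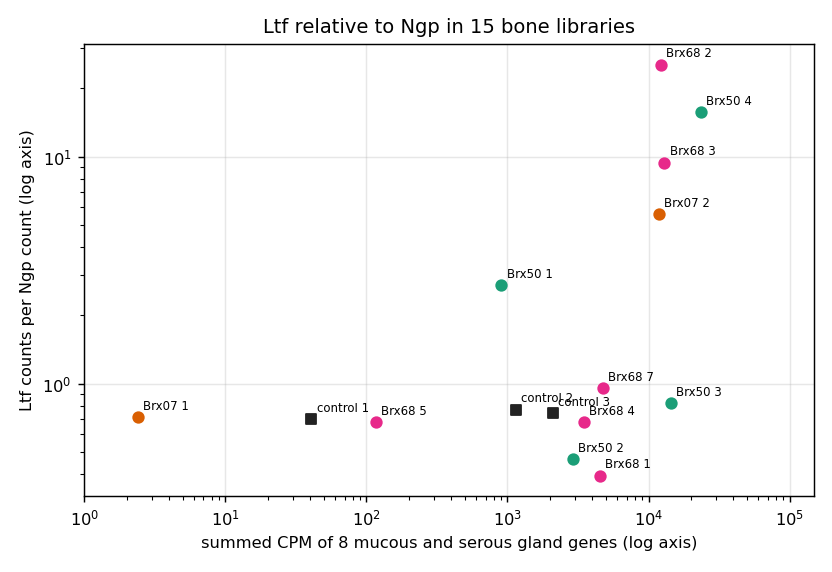
Ltf counts per Ngp count (log axis) against the summed CPM of 8 gland genes (log axis) in the 15 bone libraries with Ngp counts, squares being controls and circles exposed libraries. The 3 controls lie between 0.698 and 0.769, 4 of the 5 libraries with sums of at least 11852 CPM lie between 5.57 and 25.5, and the other, Brx50 library 3, lies at 0.822.

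Brx68 bone library 6 had the lowest sum of the 7 members in bone, at 27.1 CPM. It had 0 counts of Ltf, Camp, Ngp, Mmp8 and Retnlg in 7058861, which allows up to 0.425 CPM of each, and 1 count of Ly6g, yet 190 counts of Lcn2 (26.9 CPM). It had 16256 genes detected, where bone controls had 22875 to 22917; Brx68 bone library 1, with Ly6g at 0, had 14769, Brx68 bone library 2, also with Ly6g at 0, had 21723, and Brx50 brain library 1, with 4 members at 0, had 16344. The part of library complexity in these zeros was not tested. Of the 6 primary granule genes 5 were at 0, and the 10 mature neutrophil genes summed to 68.0 CPM against 13592 to 19153 in controls. Monocyte and macrophage genes summed to 977 CPM there, above the 287 to 418 CPM of the controls. Its Lcn2 level was 0.976% of the control mean, and in Brx50 library 1, with 200 counts, it was 0.993%.

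Between Brx68 and Brx50 in bone, no difference in the members was detectable, and Brx07, with 2 libraries, was not compared. Ltf stood at 4438 ± 4332 CPM (SD, n = 2) beside Brx07, 3121 ± 3472 (n = 4) beside Brx50 and 1603 ± 2599 (n = 7) beside Brx68, each line holding libraries near the control level and libraries far below it. Brx68 minus Brx50 estimates ran from -0.71 (Ly6g) to -1.22 (Camp, SE 1.98, 95% interval -5.10 to 2.67), with adjusted p from 0.931 to 0.951. Of the 7 members 0 were called, and of all 19211 genes 0%, with 1344 at an unadjusted p under 0.05 in edgeR's quasi-likelihood test and 72 genes called by DESeq2. Without Brx50 library 2, the estimates of Ngp, Lcn2, Mmp8, Ly6g and Retnlg became positive, between 0.00138 and 0.18.

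**Figure D4:**
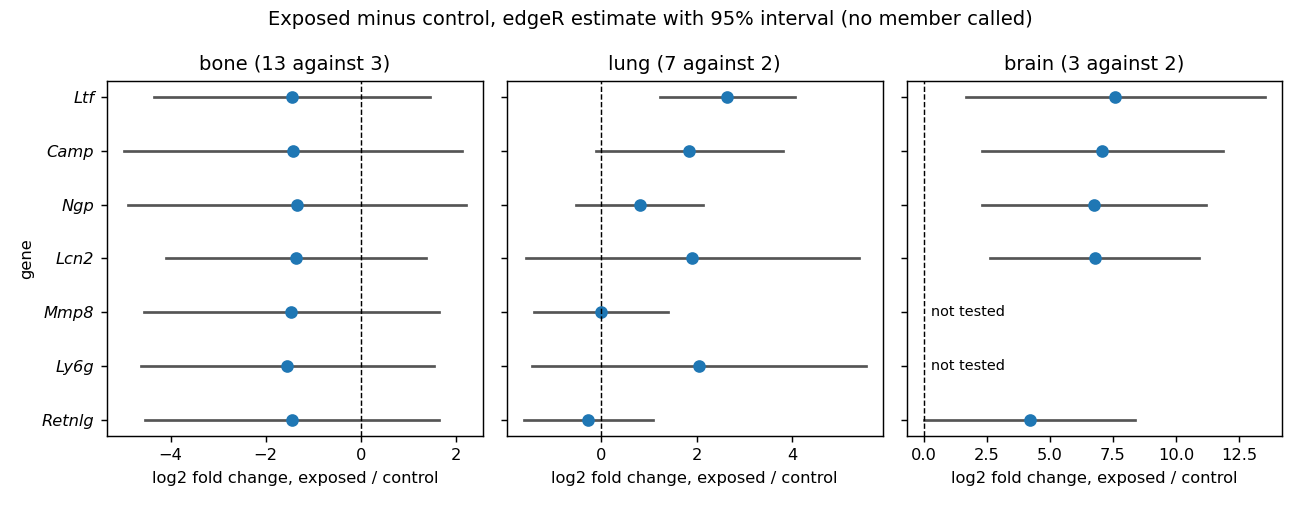
Log2 fold change of exposed over control for each gene in bone, lung and brain, as edgeR's estimate (point) with its 95% interval (line); the dashed line is 0, and the horizontal scales differ. Bone intervals all span 0 around estimates from -1.35 to -1.55, the lung Ltf interval runs from 1.22 to 4.06, and Mmp8 and Ly6g were not tested in brain.

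In lung the members did not move together. Ltf was above both controls in all 7 exposed libraries, as was no other member. It stood at 14.3 and 14.3 CPM in the 2 controls. It stood at 202 and 96.5 CPM in the Brx07 libraries, 99.2 in Brx42, 44.5, 37.5 and 48.6 in Brx50 and 68.1 in Brx68. Every exposed library was above every control, which held for 174 of 17132 tested genes (1.02%). The log2 fold change was 2.64 (SE 0.72, 95% interval 1.22 to 4.06), the third smallest p of all genes in edgeR's quasi-likelihood test, with an adjusted p = 1. Without Brx07 library 1, the highest, it was 2.23. No member and no gene (0%) was called in lung, and 118 genes had an unadjusted p under 0.05. The other tools called no member either: DESeq2 called Gm12896, Tg and Nyx, and limma-voom with quality weights Gm12896, genes named here after their values were seen.

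Camp stood at 1.70 and 1.49 CPM in controls and at 1.14 to 12.9 CPM (median 2.48) in exposed lung, with 6 of 7 libraries above both controls and Brx42 below. Its log2 fold change was 1.84 (SE 1.00). Ngp stood at 22.1 and 14.1 CPM against 11.9 to 63.3 (median 27.8), with 4 above, 1 within and 2 below the controls (0.80, SE 0.68). Camp and Ngp were highest in the same 3 libraries, Brx50 1, Brx07 1 and Brx50 2. Their log2 levels had a Pearson correlation of 0.92 over the 7 exposed libraries, which share a tissue and differ in depth and tumour line. Mmp8 stood at 27.1 and 22.04 CPM against 7.10 to 62.7 (median 16.3) and Retnlg at 44.4 and 35.8 against 5.79 to 67.9 (median 25.8), with estimates of -0.01 (SE 0.72) and -0.27 (SE 0.69). Over all 21 pairs of members, the correlation ran from -0.67 to 0.98 in exposed lung, with a median of -0.35. In exposed bone the same 21 pairs had 0.81 to 0.99, with a median of 0.97, over 13 libraries. Each lung correlation includes Brx50 library 3, which held the highest Lcn2, Ly6g and Mmp8 and the lowest Retnlg of exposed lung. Among the remaining exposed libraries, Mmp8 and Retnlg were both highest in Brx42 and both lowest in Brx07 library 1. The correlations were not computed without Brx50 library 3, so how far the lung median rests on it was not tested.

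Lcn2 and Ly6g in lung turned on a single library. Lcn2 stood at 97.5 and 97.6 CPM in the controls and at 41.4 to 96.0 CPM in 6 exposed libraries, all below both controls, but at 1818 CPM (25766 counts) in Brx50 library 3. Ly6g stood at 2.24 and 2.88 CPM in controls, at 1.13 to 3.57 in the same 6 and at 51.9 CPM in Brx50 library 3. The estimates were 1.90 (SE 1.78) and 2.05 (SE 1.78) with that library and -0.46 and -0.19 without it. That library was unlike marrow in the other members: Mmp8 was its highest in lung at 62.7 CPM, Camp (2.19), Ngp (15.2) and Ltf (48.6) were within the range of the other exposed libraries, and Retnlg was the lowest in lung at 5.79 CPM. Genes of mature neutrophils were high there, with Cxcr2, the chemokine receptor, at 494 CPM against 101 and 109 in controls, Csf3r at 804 against 444 and 349, and Fpr1, a formyl peptide receptor, at 287 against 67.9 and 53.9. So were Hp (haptoglobin) at 1351 CPM against 175 and 141, and Mmp9, the gelatinase, at 726 against 107 and 121. Cd177 and Chil3 were low, at 9.46 and 51.0 CPM, where controls held 117 to 137 and 601 to 1261. Primary granule genes summed to 4.31 CPM in that library against 4.74 and 8.60 in controls. Its 3 lung markers summed to 375 CPM, a level given above, and their part in these values was not tested.

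**Figure D5:**
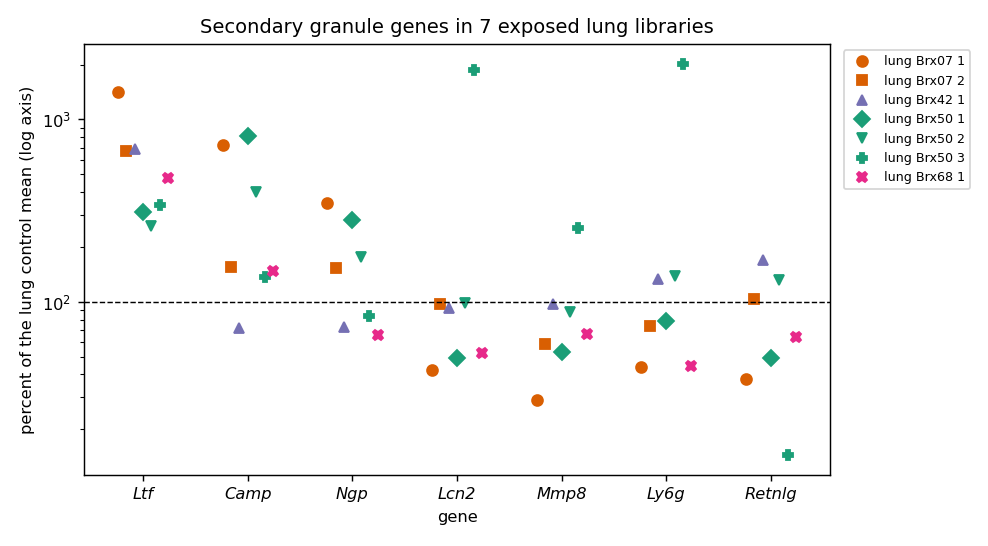
Each gene in each of the 7 exposed lung libraries as a percentage of the mean of the 2 lung controls (log axis), with a dashed line at 100%. All Ltf points lie between 262% and 1407%, and Brx50 library 3 lies at 1864% for Lcn2 and 2025% for Ly6g but at 14.4% for Retnlg.

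In other granule and neutrophil lists in lung 0 genes were called by edgeR's quasi-likelihood test. Of 11 other specific and gelatinase granule genes 5 estimates were positive and 6 negative (median -0.12), of 10 mature neutrophil genes 4 and 6 (-0.23), of 3 tested primary granule genes 2 and 1 (0.16), and of 6 regulators 1 and 5 (-0.21), beside a median of 0.08 over all genes. Mpo and Elane stood at no more than 2.03 and 2.14 CPM in any exposed lung library, at 0.279 to 0.358 and 0.744 to 1.79 in controls. S100a9 stood at 558 and 537 CPM in controls and 178 to 917 in exposed lung, Chil3, a chitinase-like protein that alveolar macrophages also make, at 1261 and 601 against 51.0 to 2151, and Cybb, the phagocyte oxidase subunit, at 995 and 686 against 199 to 965. Production and traffic genes had 3 positive and 5 negative estimates (-0.18), and receptors and inhibitors 6 and 2 (0.37). The gland list had 6 of 6 positive estimates (2.94): its sum was 17.1 and 35.8 CPM in controls, and 412 and 193 in Brx07, 311 in Brx42, 127 in Brx68 and 13.6, 73.5 and 12.4 in Brx50 libraries. The 4 libraries with gland sums of 127 CPM or more were those with the highest Ltf, at 68.1 to 202 CPM. In Brx50 libraries 1 and 3, with gland sums below both controls, Ltf was at 44.5 and 48.6 CPM, above both controls. The part of gland cells in lung Ltf was not tested. Epithelial genes were also positive in 6 of 6 estimates (0.91), and astrocyte-list, monocyte, erythroid and eosinophil lists had medians of 0.56, -0.06, -0.69 and -0.54.

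In brain, members were at traces in controls and high in a single exposed library. Brx50 brain library 2 held 650 CPM of Ltf, 219 of Camp, 854 of Ngp, 270 of Lcn2, 96.2 of Mmp8, 19.5 of Ly6g and 91.4 of Retnlg. Library 3 held 9.98, 9.50, 30.4, 31.7, 1.11, 0.158 and 2.85 CPM in the same order, and library 1 held 0 of Ltf, 1.17 of Camp, 8.63 of Ngp, 2.56 of Lcn2 and 0 of Mmp8, Ly6g and Retnlg, where 0 allows up to 0.699 CPM. Controls held 1.44 and 0.666 CPM of Ltf, 0.638 and 0.400 of Camp, 3.67 and 1.47 of Ngp, 0.159 and 1.47 of Lcn2, and 1.44 and 1.73 of Retnlg. By CPM, Camp, Ngp and Lcn2 were above both controls in all 3 exposed libraries, as were 3337 of 16734 tested genes (19.9%). Ltf, Mmp8 and Retnlg were above both in 2 and below both in 1, and Ly6g was above both in 2. Several of these placings rest on few counts. In library 1 Camp had 5 counts and Lcn2 11, where controls had 4 and 3 of Camp and 1 and 11 of Lcn2. Library 3 and control 2 each had 1 count of Ly6g. The 0 of Mmp8 in library 1 allows more CPM than either control held, and that of Ltf more than control 2 held.

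Of the 7 members, 5 passed the filter on low counts in brain, and 0 of these 5 were called by edgeR's quasi-likelihood test. A single gene in all (0.00598%), the hormone precursor gene Pomc, was called, with 2272 at an unadjusted p under 0.05. The log2 fold changes were 7.6 for Ltf (SE 3.03, adjusted p = 0.353), 7.07 for Camp (SE 2.44, 0.320), 6.75 for Ngp (SE 2.26, 0.315), 6.77 for Lcn2 (SE 2.11, 0.301) and 4.19 for Retnlg (SE 2.14, 0.450). DESeq2 called Camp and Lcn2 (adjusted p = 0.0225 and 0.0203), among 3.69% of genes called higher. No member was called by limma-voom with quality weights. Without Brx50 brain library 2, the Ngp estimate was 2.92 (SE 0.79, adjusted p = 0.258), that of Lcn2 4.32 (SE 1.39, 0.282) and that of Retnlg -0.12, and Ltf and Camp no longer passed the filter. Ly6g and Mmp8 had 1 and 3 counts in controls together. Their counts per total in exposed brain were 129 times (95% counting interval 22.9 to 5122) and 213 times (72.5 to 1032) as high, of which 189 of 190 and 932 of 939 counts lay in library 2. These intervals also leave out the spread among libraries.

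In Brx50 brain library 2 several members stood in the proportions of the bone controls. It had 0.762 counts of Ltf, 0.256 of Camp and 0.317 of Lcn2 per Ngp count, within the bone control ranges of 0.698 to 0.769 for Ltf, 0.235 to 0.259 for Camp and 0.291 to 0.319 for Lcn2. Retnlg (0.107) was also within its range of 0.0901 to 0.112, while Mmp8 (0.113) and Ly6g (0.0229) were above the bone controls, at up to 0.0568 and 0.0147. Mpo and Elane stood at 88.4 and 105 CPM there, against 0.9504 and 3.80 in library 3, 0 in library 1, and at most 0.159 in controls. Primary granule genes summed to 288 CPM beside 2201 CPM of the members, where bone controls had 2179.5 to 3160 CPM beside 19012 to 25706. Erythroid genes summed to 61.1 CPM against 12.8 and 14.7 in the other exposed and 17.9 and 31.7 in the control brain libraries. Brain markers summed to 22553 CPM in it, and to 30943.5 and 16862 CPM in libraries 1 and 3.

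Library 3 differed from library 2 in proportion as well as in level. It had 1.04 counts of Lcn2 per Ngp count and 0.328 of Ltf. In all lists of neutrophil genes the estimates in brain were positive: 11 of 11 other specific and gelatinase granule genes (median 3.69), 2 of 2 tested primary granule genes (6.04), 9 of 9 mature neutrophil genes (3.41) and 4 of 4 tested regulators (2.47), with 0 called, beside a median of 0.03 over all genes. The list of monocytes and macrophages, whose genes microglia share, was positive in 8 of 8 (2.21), reactive astrocyte genes in 4 of 6 (1.33), epithelial genes in 4 of 4 (2.5), production and traffic genes in 5 of 6 (3.08) and receptors and inhibitors in 6 of 6 (1.12). S100a9 stood at 6.22 and 9.19 CPM in controls and at 15.4, 1171 and 44.7 in exposed libraries 1, 2 and 3, Cybb at 5.58 and 10.3 against 41.0, 202 and 81.6. Cd44 stood at 11.7 ± 0.154 CPM (n = 2) and 59.5 ± 45.04 (n = 3), and Vim at 65.4 ± 17.6 and 301 ± 206. Csf1r stood at 243 ± 81.0 and 791 ± 397 CPM, and the neuronal gene Snap25 at 1208 ± 277 and 476 ± 297. The part of blood, marrow or other cells in the members' levels was not tested.

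The differences between tissues were tested in a fit of all 30 libraries, which share their spread. Exposed brain libraries were of Brx50 alone, those of bone pooled Brx07, Brx50 and Brx68, and those of lung pooled these and Brx42. Tissue and tumour line therefore cannot be told apart in these contrasts. Exposed minus control in brain exceeded that in bone by 5.57 (Retnlg, SE 3.12) to 8.99 (Ltf, SE 3.46) on the log2 scale, with adjusted p from 0.566 to 0.628. None of the 7 was called, nor was any of 21233 genes (0%), with 1771 at an unadjusted p under 0.05. In this contrast DESeq2 called Ltf and Lcn2 higher (adjusted p = 0.0241 and 0.0375) among 0.367% of genes. By limma-voom with quality weights Lcn2 was called (adjusted p = 0.0245) among 4.52% of genes. Without Brx50 brain library 2 the estimates lay lower, down to 3.65 for Ltf and 1.29 for Retnlg. In lung, the difference exceeded that in bone by 1.13 (Retnlg) to 4.04 (Ltf, SE 2.71), each with an adjusted p = 1, and 0 of 7 members and 0% of genes were called, with 237 genes at an unadjusted p under 0.05. Here limma-voom with quality weights called Ltf alone of the 7 (6.27, SE 1.57, adjusted p = 0.0422), as it did 1.12% of genes, and DESeq2 called no member and 10 genes.

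Some exposed libraries carry the same label code, mostly in several tissues of a line, and the labels do not give its meaning. Brx50 bone library 2, brain library 3 and lung library 3 share a code. Their Lcn2 levels were 3084, 31.7 and 1818 CPM and their Ngp levels 13929, 30.4 and 15.2 CPM, so the highest Ngp in bone and the highest Lcn2 in lung carried the same code. Brx50 brain library 1 and lung library 2 share another, with Lcn2 at 2.56 and 96.0 CPM and Ltf at 0 and 37.5. Brx50 bone library 3 and lung library 1, with a further code, had Ngp at 6958 and 50.9 CPM, and Brx68 bone library 6, of another line, carries that code too, with Ngp at 0. Brx68 bone library 7 and lung library 1 had Ngp at 118 and 11.9 CPM. The Brx07 leg and skull libraries, also with a shared code, had Ngp at 10522 and 247 CPM.

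By level across libraries, the genes most like the mean of the 7 (Pearson's r of log2(CPM + 1) over the 30 libraries, a description in which groups of libraries share a tissue and depth differs) were S100a8 (0.963), Olfm4 (0.960), S100a9 (0.958), Mgam (0.956), Cebpe (0.956), Prtn3 (0.955), Tkt (0.951) and Itgb2l (0.951). Olfm4 encodes a further specific granule protein, Prtn3 the primary granule protease proteinase 3, and Cebpe the C/EBP factor of the secondary granule stage. Over the 13 exposed bone libraries alone they were Cd177 (0.996), S100a9 (0.989), S100a8 (0.989), Mcemp1 (0.988), Dhrs9 (0.988), Il18rap (0.982), Mxd1 (0.981) and Pglyrp1 (0.981). S100a8 and S100a9 stood in both groups of 8.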

How the data were processed

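RNA of GFP-negative stromal cells was measured in 30 libraries. The authors deposited a table of raw counts per mouse gene, with 43346 Ensembl IDs, used as deposited. The tools named, per the submitters' processing notes, are STAR 2.5.2b and HTSeq; 4 builds (mm10, GRCm38.p5, hg19, GRCh37) are named without a role. The sources used here give neither the annotation nor the strand setting nor how human reads were kept apart, so reads of a gene and an antisense partner cannot be told apart. GENCODE M21 (GRCm38) gave symbols to 42462 IDs, and the rest held 0.132% of counts and stayed in the tests. Promoters came from RefSeq (GRCm38.p6).

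The main test was edgeR 4.0.16 under R 4.3.3 (two-sided quasi-likelihood F-test, robust, TMM, filterByExpr, Benjamini-Hochberg over all genes tested, threshold 0.05). The SE is the log2 fold change divided by the root of F, and the 95% interval is 1.96 SE either way. This interval is approximate: with few libraries per group it is narrower than one from the F-test would be. Each tissue was fitted alone with lines pooled, tissue differences in all 30 libraries in 6 groups, controls in a fit of the 7 control libraries, and lines in bone in 4 groups. CPM use unscaled totals. Libraries of 1 group always differed by more than sampling noise (smallest chi-square per degree of freedom 9.64, over genes with at least 40 counts). The scripts were tested on simulated data. A further 15 lists (96 genes) were summarised as counts, medians and sums, and single genes of them were also named with their values. The rule for naming genes was all members and, of each list, the 2 genes with the highest mean CPM over the 30 libraries and at most 2 past the threshold by fold. The text names such genes mainly of the neutrophil lists and gives the other lists mostly as counts, medians and sums. For likeness it names 8 genes with a mean of at least 10 CPM. The members and lists were chosen with earlier results of these data known, and further genes named were chosen after their values were seen. Alternatives were RLE and upper quartile scaling, no filter, DESeq2 1.42.0, limma 3.58.1 voom with quality weights, 1 fit of all libraries, each line as a group, each library left out, a replicate block for controls, and, chosen after seeing the data, the Brx07 leg and skull libraries summed and the block on the numbers that the descriptions give the brain controls.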

Additional observations from a re-analysis of the deposited data

Results flagged for a closer look

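Among the 7 exposed lung libraries, Brx50 library 3 stood apart for 2 members. Lcn2 stood at 1818 CPM there, with the next highest exposed library at 96.0 CPM, and Ly6g at 51.9 CPM, with the next highest at 3.57 CPM. In both cases the gap on the log2(CPM + 1) scale exceeded Dixon's 95% limit for 7 values. Of 21 groups of values examined in this way, chance flags about 1 in 20.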

How the results depend on the processing

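Leaving out each library in turn gave 0 called members in every comparison of exposed with control and 7 in every comparison of controls. Genes called then numbered 0 to 2 in bone (2 without Brx68 replicate 2), 0 to 69 in brain (69 without Brx50 replicate 1, and 0 without Brx50 replicate 3 or either control) and 0 to 22 for brain minus bone (22 without brain Brx50 replicate 3, 3 without brain Brx50 replicate 1 and 1 without lung Brx50 replicate 3). Single estimates that changed sign were, in lung, Mmp8 (-0.60 to 0.14), Lcn2 (-0.46 to 2.10) and Ly6g (-0.19 to 2.24), in brain Retnlg (-0.12 to 4.77), and for Brx68 minus Brx50 Ngp (-2.51 to 0.00138), Lcn2 (-1.78 to 0.15), Mmp8 (-2.02 to 0.067), Ly6g (-1.89 to 0.18) and Retnlg (-2.46 to 0.053). With DESeq2, genes called were 17 in bone, 3 in lung, 712 in brain (2 members), 108 for brain minus bone (2 members), 10 for lung minus bone and 72 for Brx68 minus Brx50. With limma-voom and quality weights they were 2844 in bone (7 members), 1 in lung, 845 in brain, 1638 for brain minus bone (1 member) and 317 for lung minus bone (1 member). In lung, Lcn2 was -0.42 and -0.55 and Ly6g -0.17 and -0.39 with DESeq2 and limma-voom, and Mmp8 was 0.00137 with RLE scaling and 0.000608 with DESeq2. Without the low count filter brain had 273 genes called. With all 30 libraries in a single fit the counts were 1 in bone, 0 in brain, 93 for bone minus lung controls (0 members), 6187 for bone minus brain controls (Ly6g lost) and 5165 for lung minus brain controls (0 members). The causes were not tested. Scaling moved the bone median of all genes from 0.08 to 0.15 (RLE) and 0.20 (upper quartile), and members stayed negative. The brain controls are titled 1 and 2 and described as 2 and 3, and the title numbers were used. Same-numbered controls had correlations of deviations from -0.101 to 0.0409 with the title numbers and from 0.00224 to 0.101 with the described ones, and not every pair passed 0.1 with either. With a replicate block on the title numbers, bone minus lung controls gave 7377 genes, bone minus brain 13524 and lung minus brain 13197, and with the described numbers (chosen after seeing the data) 8001, 13877 and 12565, with 7 members in each. No paired analysis was possible for exposed against control because replicate numbers of exposed libraries carry no pairing. Of the 8 genes most like the members, 4 were shared with Spearman's correlation, over 30 and over 13 libraries. At these depths a member at 0 counts may stand at up to 0.264 to 0.699 CPM.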
